A study of Homo sapiens with 6 samples.

Results

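Transcripts of 9 genes of the TGF-beta pathway were examined in DU145 cells with and without overexpression of circCSPP1: the ligand genes TGFB1, TGFB2 and INHBA, the receptor genes TGFBR1, TGFBR2 and TGFBR3, the signal transducer genes SMAD3 and SMAD7, and the target gene TGFBI. They were chosen by name from a table of 19727 genes, for their place in the pathway and with earlier results of these data known. A row named for its member was found for 8 of the 9. The row with the Ensembl identifier of TGFB1, ENSG00000105329, carries the symbol AC011462.1 in the table and was taken by its identifier.

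DU145, an established cell line from a human prostate carcinoma, was transfected with lentivirus-NC, the control vector, or with lentivirus-circCSPP1, a vector for overexpression of this circular RNA. Both lines were selected with puromycin, and each gave 3 libraries of polyadenylated RNA, named here controls 1 to 3 and circCSPP1 libraries 1 to 3 by their replicate numbers. Each group is its own selected line, so an effect of circCSPP1 and a difference between the lines cannot be told apart, and whether the 3 libraries of a group came from separate cultures is not given in the sources used here. If they did not, the p-values measure technical spread only. Levels are in FPKM, the number of fragments divided by transcript length in kilobases and by the library's fragments in units of 1000000. The depth read from the steps of low values was 28900000 to 36400000 fragments per library, with overlap between the groups. CSPP1, the host gene, was at 9.54 ± 0.493 FPKM in the controls and at 19.5 ± 4.44 FPKM with circCSPP1 (SD, n = 3 per group, adjusted p = 0.016 from limma), a level that does not separate the linear from the circular transcript. By qRT-PCR, the paper reports more circCSPP1 but no change of linear CSPP1 in such cells. CircCSPP1 library 1 stood apart from libraries 2 and 3. Across 12310 genes, the departure of a library from the mean of the others in its group had a Spearman correlation with the GC content of the transcript of 0.784 in circCSPP1 library 1, -0.733 in library 2 and -0.482 in library 3, against -0.06 to 0.10 in the controls. For the 9 genes, results are therefore also given without that library, or after a correction for GC content and transcript length, where this changed a call. For other genes of the pathway, only the counts that passed are given in these ways.

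TGF-beta ligands are secreted in a latent form, and the released dimer binds the type II receptor encoded by TGFBR2, which recruits and phosphorylates the type I receptor encoded by TGFBR1. The type I receptor phosphorylates SMAD2 and SMAD3, which enter the nucleus with SMAD4 and regulate target genes. SMAD7 is itself a target gene and encodes an inhibitor that acts on the type I receptor, so it serves as negative feedback. In prostate epithelium the pathway is known for restraining growth, and carcinoma cells can lose that response while they keep others, such as those on matrix and motility.

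The study asks about circCSPP1 together with miR-520h and EGR1, so the members' sequences were first searched for matches to both. Mature miR-520h (RefSeq, GRCh38.p14, chr19:53742566-53742587, plus strand) is shown with its seed, bases 2 to 8, in capitals.

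hsa-miR-520h: aCAAAGUGcuucccuuuagagu

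The 3′ UTRs of GENCODE release 29 (GRCh38), the longest of each gene's complete coding transcripts, were searched on the transcript strand for CACTTTG and ACTTTGA, the matches of 7 bases. Such a match was found in TGFB2, TGFBR1, TGFBR3, SMAD3 and SMAD7, and in none of TGFB1, TGFBR2, INHBA and TGFBI. Of all 12212 tested genes with a 3′ UTR, 32.9% held one, and of the 4287 with a 3′ UTR of at least 2000 nt, 61.2% did. SMAD3, with 4659 nt, and TGFBR1, with 4887 nt, held the 8-base match CACTTTGA, SMAD3 at 2 places. These are printed with the 1 match of 7 bases in each of SMAD7 and TGFBR3, the other SMAD and receptor genes that rose or fell, along the transcript strand and with the match in capitals.

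SMAD3, chr15:67190745-67190774, plus strand: ccctttggcccCACTTTGAagggcaagaaa

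SMAD3, chr15:67191237-67191266, plus strand: ttgtcctttttCACTTTGAaaagttggaag

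TGFBR1, chr9:99150613-99150642, plus strand: aggtctcactaCACTTTGAggaaggcagct

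SMAD7, chr18:48919987-48920016, minus strand: aagaaaagatgCACTTTGctttaatataaa

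TGFBR3, chr1:91682447-91682476, minus strand: taatatgatgcCACTTTGcagctaaaataa

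Of the genes printed here, SMAD3 and SMAD7 rose with lentivirus-circCSPP1, TGFBR3 fell, and TGFBR1 overlapped between the groups. The median log2 fold change of the 4014 tested genes with a match of 7 bases was -0.03, and that of the genes without one was also -0.03. A match of letters is not evidence that the miRNA acts there, and a part of miR-520h in any of these differences was not tested.

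Group differences were tested with limma on log2(FPKM + 1) over the 12322 genes whose mean reached 1 FPKM, and p-values were adjusted over all of them by the Benjamini-Hochberg method. Of the 9 genes, 8 passed this filter and INHBA did not. SMAD3 and SMAD7 rose and TGFBR3 and TGFBI fell at an adjusted p under 0.05, so that 4 of the 8 tested genes passed. Over all tested genes 11.4% passed, 4.69% higher and 6.66% lower with circCSPP1. The members were chosen with earlier results of these data known, so their count is a description. Of the members, 2 passed without control 1 or control 3 and 3 without control 2, where 2.43%, 3.30% and 2.57% of all genes did. Without circCSPP1 library 1, or with the correction for GC content and length, 5 passed beside 28.5% and 28.4% of all genes. Without circCSPP1 library 2 or 3, 4 passed beside 9.41% and 3.65%. The groups did not overlap in 5 of the 8, the 4 that passed and TGFB2, and in 36.4% of all tested genes. The median log2 fold change of the 8 genes was -0.23, beside -0.03 over all tested genes.

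**Figure D1:**
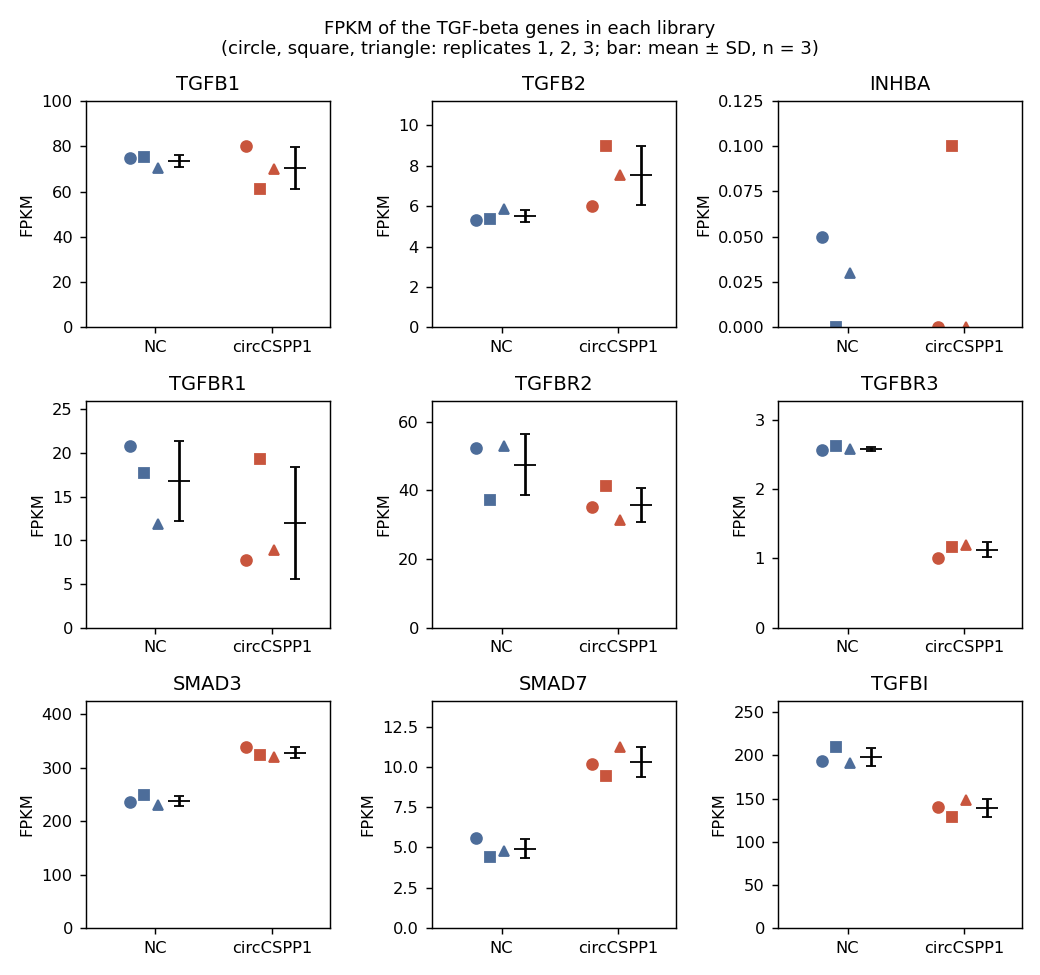
FPKM (vertical axes, linear and from 0) of the 9 genes in the 3 controls (blue) and the 3 circCSPP1 libraries (red), with the mean ± SD beside the points except for INHBA. The groups are apart for TGFB2, TGFBR3, SMAD3, SMAD7 and TGFBI and overlap for TGFB1, INHBA, TGFBR1 and TGFBR2.

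Of the 3 ligand genes, the row taken as TGFB1 had the highest level. The row of TGFB1 stood at 74.9, 75.1 and 70.4 FPKM in controls 1, 2 and 3, and at 80.1, 61.2 and 70.0 FPKM in circCSPP1 libraries 1, 2 and 3. The groups overlapped, and the circCSPP1 libraries lay on both sides of the controls. Its log2 fold change, circCSPP1 against control, was -0.07 with a 95% interval of -0.32 to 0.19 (adjusted p = 0.74 from limma). After the correction for GC content and length the 3 circCSPP1 values were 69.3, 69.0 and 73.9 FPKM. Its transcript has a GC content of 63.5%, above 92.6% of the tested genes. TGFB1 lies on chromosome 19 from 41301587 to 41353911 on the minus strand, and 4 annotated protein-coding genes overlap it on the plus strand: HNRNPUL1, CCDC97, TMEM91 and the gene that GENCODE calls AC011462.1. Whether the authors' counting used strand is not given in the sources used here, so fragments of TGFB1 and of these genes cannot be told apart and the value is uncertain.

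TGFB2, the isoform that depends most on the co-receptor encoded by TGFBR3, was lower than the uncertain row of TGFB1. The gap was 12 to 14.1 times in the controls and 6.83 to 13.3 times with circCSPP1, from the FPKM of each library. TGFB2 stood at 5.32, 5.35 and 5.86 FPKM in controls 1, 2 and 3, and at 6.03, 8.97 and 7.56 FPKM in circCSPP1 libraries 1, 2 and 3. All 3 circCSPP1 libraries were above all 3 controls, with library 1 close to them. At a log2 fold change of 0.37 with a standard error of 0.15, it did not pass (adjusted p = 0.14 from limma). Without circCSPP1 library 1 it was 0.51 (adjusted p = 0.016), and with the correction for GC content and length in all 6 libraries it was 0.44 (adjusted p = 0.0076). It passed in those 2 of 17 alternatives, and with any other library left out it was 0.25 to 0.41 (adjusted p of 0.25 to 0.34). The corrected values were 5.24, 5.10 and 5.75 FPKM in the controls and 7.96, 7.65 and 7.22 FPKM with circCSPP1, so that the groups lay further apart than the libraries within them. The transcript of TGFB2 has a GC content of 38.9%, and 10.3% of the tested genes have a lower one. TGFB2 lies on chromosome 1 from 218346235 to 218444619, and its 3′ UTR contains the non-coding gene TGFB2-OT1 on the same strand, whose fragments cannot be told from its own.

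The log2 ratio of TGFB2 to TGFB1 within a library, on log2(FPKM + 1), was -3.52 ± 0.119 in the controls and -3.07 ± 0.443 with circCSPP1 (SD, n = 3 per group). The groups overlapped, and the exact permutation test, two-sided, gave p = 0.20, or 0.30 after adjustment over the 3 ratios tested. With 3 libraries against 3, such a test cannot give a p under 0.10. The ratio also carries the uncertainty of the row of TGFB1.

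INHBA, which encodes the subunit of activin A, was listed at 0.05, 0 and 0.03 FPKM in controls 1, 2 and 3, and at 0, 0.10 and 0 FPKM in circCSPP1 libraries 1, 2 and 3. On its longest coding transcript of 6064 nt these values amount to at most 21 fragments per library. A difference in INHBA was not detectable at this depth. The gene INHBA-AS1 overlaps it on the opposite strand.

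Of the receptor genes, only TGFBR3 passed the test. TGFBR3 encodes betaglycan, a co-receptor without kinase activity that binds TGF-beta ligands and presents them to the type II receptor. It stood at 2.56, 2.62 and 2.58 FPKM in controls 1, 2 and 3, and at 1, 1.17 and 1.2 FPKM in circCSPP1 libraries 1, 2 and 3. The control libraries were within 0.06 FPKM of each other, and all circCSPP1 libraries were lower by more than the whole spread within either group. The mean was 2.30-fold lower with circCSPP1 on the FPKM scale. On log2(FPKM + 1), which understates the change of a low gene, the log2 fold change was -0.76 with a standard error of 0.10 (adjusted p = 0.0060 from limma). With a pseudocount of 0.01 it was -1.20. It passed under each of the 16 alternatives in which it was tested. The values amount to 209 to 607 fragments per library on its longest coding transcript. The gene lies on chromosome 1 from 91680343 to 91906335 on the minus strand.

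TGFBR2, the gene of the ligand-binding type II receptor, had the highest level of the receptor genes. It stood at 52.5, 37.2 and 52.8 FPKM in controls 1, 2 and 3, and at 35.0, 41.2 and 31.4 FPKM in circCSPP1 libraries 1, 2 and 3. Control 2 lay among the circCSPP1 libraries, and the groups overlapped for that reason. TGFBR2 had a log2 fold change of -0.39 with a 95% interval of -0.77 to -0.0046 before adjustment, and the adjusted p was 0.17 (limma). With 1 library left out it ran from -0.30 without circCSPP1 library 3 (adjusted p = 0.39) to -0.55 without control 2 (adjusted p = 0.099), and it passed under none of the 17 alternatives.

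TGFBR1, the gene of the type I receptor kinase, varied more between replicates than 98.2% of the tested genes. It stood at 20.8, 17.7 and 11.8 FPKM in controls 1, 2 and 3, and at 7.77, 19.3 and 8.87 FPKM in circCSPP1 libraries 1, 2 and 3. CircCSPP1 library 2 lay within the control range and the other two below it. For TGFBR1 the log2 fold change was -0.52 with a 95% interval of -1.31 to 0.26 (adjusted p = 0.35 from limma), an interval that holds both no change and a larger fold than that of any member that passed. It was -0.29 without circCSPP1 library 1 (adjusted p = 0.55) and -0.90 without circCSPP1 library 2 (adjusted p = 0.056), the ends of the range with 1 library left out, and it passed under none of the 17 alternatives. With the correction for GC content and length the 3 circCSPP1 values were 10.1, 16.7 and 8.53 FPKM, a spread that remained wide. The log2 ratio of TGFBR2 to TGFBR1 ranged from 1.03 to 2.07 in the controls and from 1.05 to 2.04 with circCSPP1, and the difference between the groups, 0.14, was smaller than the spread within either (exact two-sided permutation test, p = 0.90, also after adjustment over the 3 ratios).

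Both SMAD genes rose. SMAD3, the receptor-activated transcription factor, was the member with the highest level, above 98.6% of all genes in the table. It stood at 235, 248 and 230 FPKM in controls 1, 2 and 3, and at 340, 325 and 321 FPKM in circCSPP1 libraries 1, 2 and 3. The gap between the groups was larger than the range within either. The mean was 1.38-fold higher with circCSPP1, and the log2 fold change was 0.46 with a standard error of 0.069 (adjusted p = 0.0085 from limma). The adjusted p was 0.059 without control 1 and 0.052 without control 3, at log2 fold changes of 0.46 and 0.44. SMAD3 lies on chromosome 15 from 67063763 to 67195195 on the plus strand, and 2 antisense genes overlap it.

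SMAD7, the feedback inhibitor, had the largest change of the tested members on log2(FPKM + 1). It stood at 5.57, 4.43 and 4.79 FPKM in controls 1, 2 and 3, and at 10.2, 9.42 and 11.3 FPKM in circCSPP1 libraries 1, 2 and 3. Every circCSPP1 library was above every control, with a gap wider than the range within either group. The mean was 2.09-fold higher with circCSPP1, and the log2 fold change was 0.93 with a standard error of 0.12 (adjusted p = 0.0059 from limma). It passed under all 17 alternatives, which included leaving out each library. SMAD7 lies on chromosome 18 from 48919853 to 48952052 on the minus strand, with no annotated gene overlapping it. The log2 ratio of SMAD7 to SMAD3 was -5.34 ± 0.177 in the controls and -4.87 ± 0.137 with circCSPP1 (SD, n = 3 per group). The groups did not overlap, and the exact permutation test, two-sided, gave 0.10, the smallest p it allows, or 0.30 after adjustment over the 3 ratios. In FPKM, SMAD3 exceeded SMAD7 by 42.2 to 56.0 times in the controls and by 28.5 to 34.5 times with circCSPP1.

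TGFBI encodes a secreted matrix protein that binds integrins and was first described as a gene induced by TGF-beta. It stood at 193, 210 and 191 FPKM in controls 1, 2 and 3, and at 140, 129 and 149 FPKM in circCSPP1 libraries 1, 2 and 3. All 3 circCSPP1 libraries lay below all 3 controls, by more than the range within either group. The mean was 1.42-fold lower with circCSPP1, and the log2 fold change was -0.51 with a standard error of 0.085 (adjusted p = 0.012 from limma). The adjusted p was 0.064, 0.074 and 0.052 when control 1, 2 or 3 was left out, at log2 fold changes of -0.53, -0.46 and -0.53. TGFBI lies on chromosome 5 from 136028895 to 136063818 on the plus strand.

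**Figure D2:**
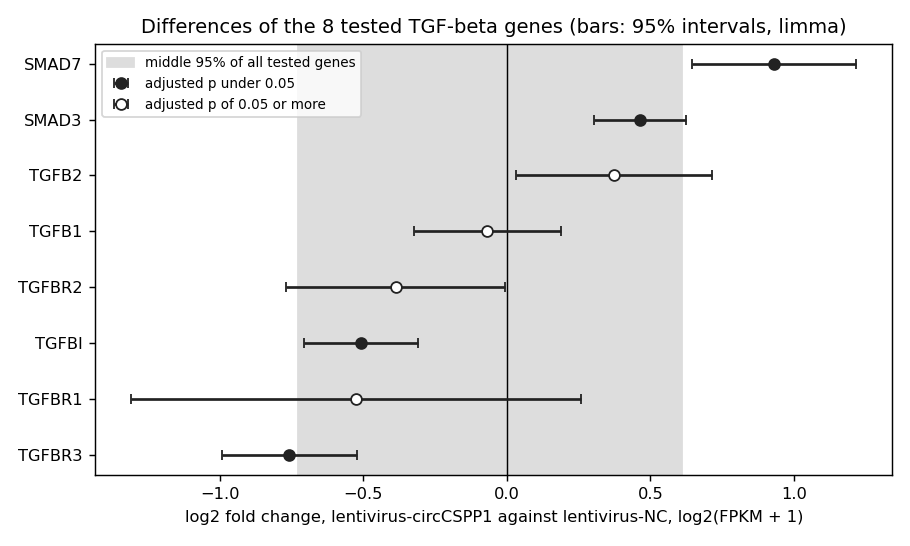
Log2 fold change on log2(FPKM + 1), lentivirus-circCSPP1 against lentivirus-NC (horizontal axis), of the 8 tested genes, with 95% intervals from limma before adjustment. Filled points have an adjusted p under 0.05, and the grey band holds the middle 95% of all tested genes, from -0.73 to 0.61; SMAD7 lies above the band and TGFBR3 below it.

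The order of the 9 levels differed little between the groups. In both it began with SMAD3, TGFBI, TGFB1, TGFBR2 and TGFBR1 and ended with TGFBR3 and INHBA, while TGFB2 stood above SMAD7 in the controls and below it with circCSPP1. In lentivirus-NC the ranges of TGFB2 and SMAD7 overlapped and no other neighbours did. In lentivirus-circCSPP1 the ranges of TGFBR1 and SMAD7 overlapped, and those of SMAD7 and TGFB2 did not.

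The promoters of the 9 genes in RefSeq (GRCh38.p14), from 250 bases before to 50 after each start, were searched on both strands for the EGR1 motif GCGNGGGCG and for the palindromic SMAD motif GTCTAGAC. EGR1 was at 3.52 ± 0.699 FPKM in the controls and rose to 9.58 ± 1.5 FPKM with circCSPP1 (SD, n = 3 per group, adjusted p = 0.0059 from limma). The EGR1 motif was present in the promoter of TGFB1, at 2 places, and in 1 of the 8 promoters of TGFBR1. Of all 35116 promoters in the table, 9.43% held it. The 3 windows are printed along the gene's strand with the motif in capitals, which in TGFB1 reads as its reverse complement.

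TGFB1, chr19:41354039-41354068, minus strand: cctcggagccCGCCCACGCgagatgaggac

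TGFB1, chr19:41353983-41354012, minus strand: ccctgggggcCGCCCCCGCtcccgccccgt

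TGFBR1, chr9:99105506-99105535, plus strand: gtgtgtccggGCGCGGGCGgacgtgtccgg

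Neither of these genes passed the test, and the 4 that did had no such match in these windows. A part of EGR1 in any of the members' differences was not tested. The SMAD motif was in 0 of the members' promoters and in 0.202% of all promoters.

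Other genes of the pathway were taken from 6 lists holding 81 genes, of which 61 were tested. The lists too were chosen with earlier results of these data known, so their counts are descriptions. At an adjusted p under 0.05, 4 rose and 10 fell, and the other 47 did not pass (limma), so that 23.0% passed beside 11.4% of all tested genes. Of the 61, 32 had a positive and 29 a negative log2 fold change, with a median of 0.02. Both shares changed with the setting. With the correction for GC content and length 20 passed, 32.8% beside 28.4% of all tested genes, and without circCSPP1 library 1 21 passed, 34.4% beside 28.5%. Without control 1, 2 or 3 the count was 2, 3 and 5, or 3.28%, 4.92% and 8.20% beside 2.43%, 2.57% and 3.30% of all tested genes, and without circCSPP1 library 3 it was 3, or 4.92% beside 3.65%. None of the 14 changed direction under any alternative run, and BHLHE40 and CCN2 passed under all 17. The calls of LTBP1 (7 of 17 alternatives), BAMBI (8 of 16), SNAI1 (9 of 16) and FN1 (9 of 17) held under the fewest alternatives, and each passed in 1 of the 6 fits with 1 library left out. The other named genes passed under 10 to 14 alternatives: HMGA2 10 of 16, LOX 11 of 16, FSTL3 and ANGPTL4 11 of 17, SMURF2 12 of 17, COL4A2 13 of 17 and COL1A1 14 of 16.

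Among 16 genes that store or activate the ligands, 8 were tested and 1 passed. LTBP1, which tethers latent TGF-beta to the matrix, fell by 0.46 on the log2 scale, from 9.63 ± 0.212 FPKM in the controls to 6.74 ± 0.735 FPKM (SD, n = 3 per group, adjusted p = 0.039 from limma). The third ligand gene, TGFB3, was at 1.51 ± 0.295 FPKM in the controls and 0.960 ± 0.122 FPKM with circCSPP1 and did not pass (adjusted p = 0.11). Of 10 genes of the activin arm, 5 were tested, and FSTL3, a secreted protein that binds and blocks activin, fell by 0.65 on the log2 scale, from 35.0 ± 2.02 to 22.2 ± 4.10 FPKM (adjusted p = 0.028).

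None of the 7 tested partners of the receptors and SMADs passed, SMAD2 and SMAD4 among them: SMAD2 measured 16.8 and 18.4 FPKM, and SMAD4 24.4 and 29.2 FPKM, as means of lentivirus-NC and lentivirus-circCSPP1. At an unadjusted p under 0.05 (limma), 1 of the 7 passed, ENG, which fell (log2 fold change -0.51, adjusted p = 0.090). Such a p is common here: TGFBR2, at an unadjusted p of 0.048, ranked 3425 by p among the 12322 tested genes. Of the 13 inhibitors of SMAD signalling, all tested, 2 passed, in opposite directions. BAMBI, a pseudoreceptor without a kinase domain, fell from 1.55 ± 0.161 to 0.813 ± 0.136 FPKM (log2 fold change -0.49, adjusted p = 0.032). Its circCSPP1 libraries, at 0.67, 0.83 and 0.94 FPKM, were each under 1 FPKM, so it met the filter only through the controls. The filter takes the mean of all libraries and so treats both groups alike. A gene that meets it only through a single group is higher in that group by this choice. SMURF2, a ubiquitin ligase that SMAD7 brings to the receptor, rose from 18.7 ± 0.327 to 29.2 ± 4.0 FPKM (log2 fold change 0.61, adjusted p = 0.020). Of the 9 genes of the SMAD-independent arm, all tested, 0 passed, and 0 did so at an unadjusted p under 0.05.

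Target genes of TGF-beta differed in both directions: 10 of 19 tested passed, 3 higher and 7 lower, with a median log2 fold change of -0.18 over the 19. The list was written with earlier results of these libraries known, so its count is a description. Those that rose were CCN2, a matricellular growth factor, from 12.2 ± 0.822 to 23.4 ± 3.42 FPKM (log2 fold change 0.88, adjusted p = 0.0081), ANGPTL4, a secreted inhibitor of lipoprotein lipase (0.92, adjusted p = 0.029), and HMGA2, a chromatin protein (0.88, adjusted p = 0.017). Among the 7 that fell, COL1A1, LOX, FN1 and COL4A2 act in the matrix, as does TGFBI. COL1A1, a chain of fibrillar collagen, fell from 3.26 ± 0.741 to 1.15 ± 0.189 FPKM (log2 fold change -0.97, adjusted p = 0.010). LOX, which crosslinks collagen, fell by 0.68 on the log2 scale, FN1 (fibronectin) by 0.65 and COL4A2 (basement membrane collagen) by 0.49, with adjusted p of 0.018 to 0.026. BHLHE40, a transcriptional repressor, fell from 26.2 ± 0.229 to 11.6 ± 1.20 FPKM (log2 fold change -1.11, adjusted p = 0.0023), and SNAI1, a repressor of epithelial genes, from 3.80 ± 0.380 to 2.51 ± 0.0400 FPKM (-0.45, adjusted p = 0.039). TGM2, another target, averaged 1454 FPKM in the controls and 1498 FPKM with circCSPP1 (adjusted p = 0.91). CDKN1A and COL4A1 missed the threshold with adjusted p of 0.092 and 0.050, at log2 fold changes of 1.06 and -0.45.

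**Figure D3:**
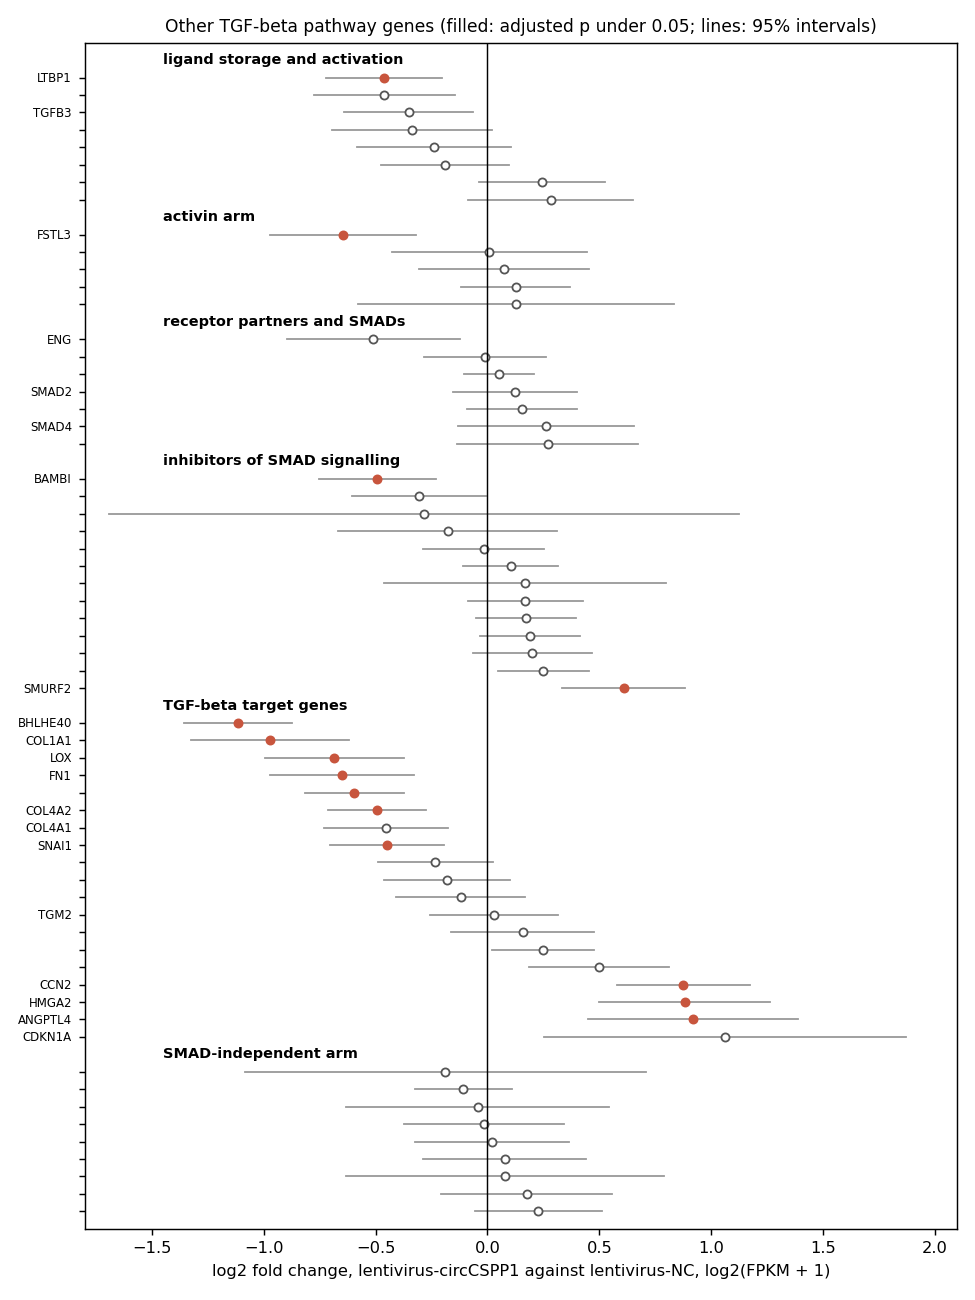
Log2 fold change on log2(FPKM + 1), lentivirus-circCSPP1 against lentivirus-NC (horizontal axis), of the 61 tested genes of the 6 pathway lists, sorted within each list, with names for the genes given in the text. Lines are 95% intervals before adjustment, and the 14 filled points have an adjusted p under 0.05, 10 of them among the target genes.

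Epithelial markers moved with the groups and are given beside these results. KRT8, KRT18, KRT19, EPCAM and CDH1, 5 of the 6 markers, fell (adjusted p of 0.00056 to 0.017 from limma), with KRT8 at 1112 ± 26.4 FPKM in the controls and 416 ± 38.3 FPKM with circCSPP1 (SD, n = 3 per group). The 6 together summed to 2460 to 2593 FPKM in the controls and 1265 to 1571 FPKM with circCSPP1. Of 7 fibroblast markers, COL1A1 was the one above 1 FPKM in any library, and LUM was at 0 in all 6. The luminal prostate markers KLK3 and KLK2 were at 0 in all 6 libraries. Leukocyte markers other than CD68 stayed under 0.34 FPKM and endothelial markers under 0.44 FPKM. In bulk RNA, fewer cells of a kind and less RNA per cell cannot be told apart, and the part of the epithelial markers' change in the results on TGF-beta genes was not tested.

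For each member that passed, the most similar genes were those with the smallest Euclidean distance over the 6 libraries, on log2(FPKM + 1) centred on each gene's mean. They were MBNL2 and SFRP1 for TGFBR3 (distances 0.104 and 0.113), JOSD1 and C19orf25 for SMAD3 (0.060 and 0.063), ACOXL and SIX5 for SMAD7 (0.195 and 0.221), and PIK3AP1 and ALDH7A1 for TGFBI (0.095 and 0.102). With 12322 genes and 6 libraries some distances are small for any gene.

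**Figure D4:**
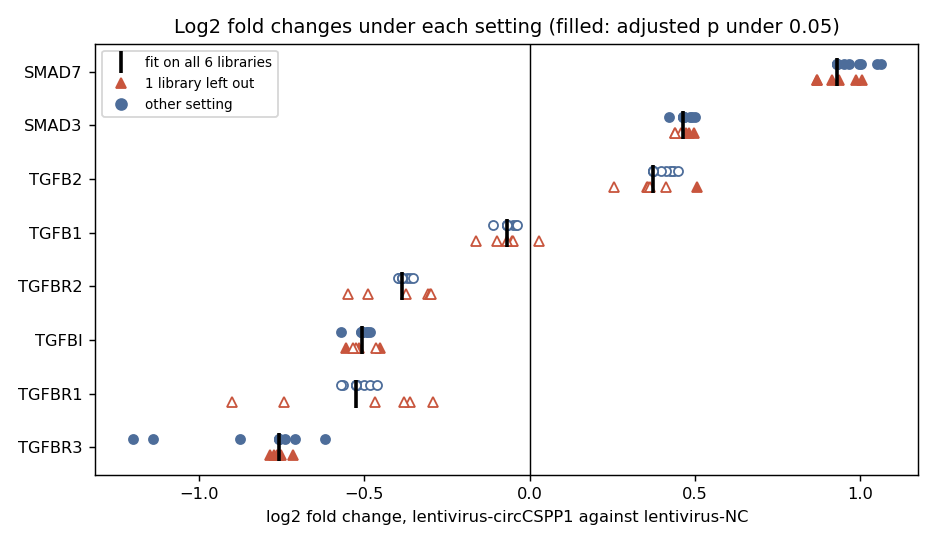
Log2 fold change of the 8 tested genes (horizontal axis) in the fit on all 6 libraries (black bar), with 1 library left out (red triangles) and under the other settings (blue circles); filled symbols have an adjusted p under 0.05. SMAD7 and TGFBR3 are filled wherever tested. SMAD3 loses the threshold without control 1 or control 3, TGFBI loses it whichever control is left out, and TGFB1 crosses 0 in 1 fit.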

How the data were processed

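The measurements are RNA-seq of 6 DU145 libraries, 3 lentivirus-NC and 3 lentivirus-circCSPP1, grouped by their titles. The deposited values are FPKM that the authors computed from paired-end NovaSeq reads of polyadenylated RNA and rounded to 2 decimals, on hg38 per the submitters' processing notes. The aligner, the FPKM program, the annotation and the strand setting are not given in the sources used here. Count models need counts and were not used, and every per-sample column was used (0 left out). Depth came from genes with 1 transcript under 800 nt, as the step at which FPKM times length falls on whole multiples, within 0.15 of a step. Fragment numbers derived from it cover counting error only.

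Levels were taken to log2(FPKM + 1). A mean of 1 FPKM or more was required, which left 12322 genes. They were fitted with limma 3.58.1 (R 4.3.3) by lmFit and trended eBayes, with group as the sole term and two-sided p-values adjusted by the Benjamini-Hochberg method. The fit was tested on simulated data. Ratios were compared by exact permutation (scipy 1.17.1), and figures were drawn with matplotlib 3.10.9. Loci, overlaps, GC content and 3′ UTRs came from GENCODE release 29. The rule named the 9 members, pathway genes with an adjusted p under 0.05, CSPP1, EGR1, the cell type markers and the 2 nearest genes of each member that passed. TGFB3, SMAD2, SMAD4, ENG, TGM2, CDKN1A and COL4A1 fall outside it and were chosen after their values were seen. Some genes of the lists are counted but not reported here by name. Members and lists were chosen with earlier results of these data known. Same-numbered libraries were not treated as pairs.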

Additional observations from a re-analysis of the deposited data

How the results depend on the processing

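Alternatives changed the pseudocount to 0.1 or 0.01, dropped the filter or raised it to 5 FPKM, or used TPM, median-ratio or quantile scaling, no moderation, robust eBayes, a replicate block, a loess correction for GC content and length, or 1 library fewer. The number of members that passed was 3 with the filter at 5 FPKM, where TGFBR3 is not tested, 5 with the GC and length correction, which adds TGFB2, and 4 under the other settings on all 6 libraries. With 1 library left out it was 2 to 5. The lowest count, SMAD7 and TGFBR3, came without lentivirus-NC replicate 1 or replicate 3. The log2 fold change of TGFB1 ran from -0.16 to 0.028 with 1 library left out, and the difference in the log2 ratio of TGFBR2 to TGFBR1 from -0.082 to 0.44, with -0.081 without circCSPP1 replicate 1; both turned direction without a call. The differences in the ratios of TGFB2 to TGFB1 and of SMAD7 to SMAD3 were positive throughout, at 0.23 to 0.67 and 0.37 to 0.55 with 1 library left out. The other pathway genes that passed were 9 with no filter, 9 with the filter at 5 FPKM, 5 without moderation, 20 with the GC and length correction and 2 to 21 with 1 library left out. Over all tested genes, 1399 passed, against 834 without moderation, 923 with the replicate block, 3501 with the GC and length correction and 300 to 3512 with 1 library left out; the cause of these differences was not tested. Same-numbered libraries of the 2 groups had correlations of their deviations of 0.073, 0.0065 and 0.057 across genes, so the pairing was not used. With the replicate block all 4 members that passed still did, with adjusted p of 0.015 to 0.035, and 11 other pathway genes passed. No setting moved the median of all tested genes by more than 0.037. Depth limits the low genes most, INHBA among them, with at most 21 fragments per library.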
